A study of Mus musculus with 6 samples.

Results

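The genes described here encode the proteins of the cytosolic ribosome, and their messages were compared between dendritic cells with and without the surface protein Ly6G. They were taken by symbol from array probe sets annotated with exactly 1 gene symbol: symbols made of Rpl or Rps, a number and at most 1 of the letters a, x, y or l, together with Rplp0, Rplp1, Rplp2 and Rpsa. Kinases of the Rps6k family and pseudogenes were left out, and each gene was read from its brightest probe set. The rule found 46 genes among 18193, of which 22 belong to the small and 24 to the large subunit by name. A filter on dim probe sets kept 43 of them among 13262 genes tested, and Rpl3l, Rps4l and Rps16 were measured but not tested. The rule used no difference between groups, but it chose the brightest probe set of each gene, and that choice bears on the results below.

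Both groups were cells of C57BL/6 mice, grown from bone marrow for 6 days with 10 ng/ml of GM-CSF, a growth factor that yields dendritic cells in culture. Ly6G+ dendritic cells (Ly6G+ DC) were CD11c+, MHC class II+ and Ly6G+, and Ly6G- dendritic cells (Ly6G- DC) were CD11c+, MHC class II+ and Ly6G-, sorted at once from shared cultures. Each group had 3 samples, numbered 1 to 3, each on 1 Affymetrix Mouse Genome 430 2.0 array. The labels give no sex or age, name no gene alteration, and do not say which samples share a culture or whether animals were pooled, so p-values rest on a sample-to-sample spread that could be technical alone. In bulk RNA, fewer cells of a type and less RNA per cell cannot be told apart.

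The cytosolic ribosome consists of a small subunit, which reads the messenger RNA, and a large subunit, which joins amino acids. Its proteins are made in matched amounts, and their messages are among the most abundant of growing cells. Most of these messages begin with a C followed by a run of pyrimidines, the terminal oligopyrimidine (TOP) element, through which the kinase mTORC1 and the protein LARP1 control their translation. In the myeloid lineage, ribosome production is high in dividing precursors and low in mature neutrophils.

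The TOP element is a feature that the symbols do not use, and windows at annotated gene starts were read for it. RefSeq entries of build GRCm38.p6 were matched by symbol for 40 of the 46 genes. A C at the annotated start followed by at least 4 bases that are C or T, on the strand of the gene, was present for 8 of the 40 genes, that is 20%, against 3.01% of all 27025 genes of the table. The windows shown run from 10 bases before to 20 bases from the annotated start, with the pyrimidine run in capitals. Of the 8 genes, the first 4 shown had the largest positive differences between sides of the array set described below, and the next 2 the negative ones, and Rpl41, with no run at its annotated start, is shown because it had the largest positive group difference.
Rpl35, chr2:39005112-39005141, minus strand: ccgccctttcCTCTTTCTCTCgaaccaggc
Rps18, chr17:33955646-33955675, minus strand: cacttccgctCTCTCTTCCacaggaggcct
Rpl38, chr11:114668570-114668599, plus strand: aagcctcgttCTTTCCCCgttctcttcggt
Rps10, chr17:27635225-27635254, minus strand: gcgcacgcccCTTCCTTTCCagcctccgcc
Rplp2, chr7:141447641-141447670, plus strand: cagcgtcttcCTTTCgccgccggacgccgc
Rps27, chr3:90213629-90213658, minus strand: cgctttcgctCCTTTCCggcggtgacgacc
Rpl41, chr10:128549149-128549178, minus strand: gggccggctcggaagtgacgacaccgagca
The annotated start is that of a RefSeq entry and may lie away from the start used in these cells, so a window without the run says only that these letters are not there. In the 300-base windows around annotated starts, CCGGAA on either strand, the core bound by ETS family factors, was found for 65% of the 40 genes and 16.7% of all genes. GGGCGG on either strand, the core of the SP1 family, was found for 55% and 38.2%, and CACGTG, the E-box that reads the same on both strands, for 10% and 8.09%. The 8 tested genes with the run at the start had a median group difference of -0.38 and the other 30 tested genes of the table one of -0.30, as log2 of Ly6G+ over Ly6G-.

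Ribosomal protein messages gave some of the brightest signals on every array. Of the 43 tested probe sets, 31 to 33 lay above the array's 99th percentile of signals, in both groups. That percentile is taken over all 45101 probe sets, whereas the 43 were each chosen as the brightest of a gene, which raises the count. The 43 signals had a median of 14649, 22456 and 17233 for Ly6G+ DC 1, 2 and 3, against 15952, 22441 and 24077 for Ly6G- DC 1, 2 and 3. The groups overlapped, with a mean ± SD of this median of 18113 ± 3977 (n = 3) for Ly6G+ DC against 20823 ± 4297 (n = 3) for Ly6G- DC. The 43 probe sets made up 2.82% to 4.60% of the summed signal on Ly6G+ arrays and 3.12% to 5.05% on Ly6G- arrays. Signals of different probe sets are not levels that can be set against each other, so genes are compared below only between samples.

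No ribosomal protein gene passed the test between the sorted populations. Limma called 0 of the 43 genes at an adjusted p under 0.05, as it called 0% of all 13262 genes, and the smallest adjusted p was 0.708, for Rpl41. At an unadjusted p under 0.05, Rpl41 was the only gene and was higher in Ly6G+ DC, against 3.39% of all genes in that direction. In the lower direction there were 0 of 43, against 3.51% of all genes. In direction, 37 of 43 genes had log2 fold changes below 0, against 55.7% of all genes, with a median of -0.36 against -0.07 over all genes. Single arrays moved this median by unlike amounts: leaving out Ly6G+ DC 1 gave -0.12, Ly6G+ DC 2 gave -0.59 and Ly6G+ DC 3 gave -0.33. Leaving out Ly6G- DC 1 gave -0.62, Ly6G- DC 2 gave -0.23 and Ly6G- DC 3 gave -0.22. The mean of all kept probe sets of a gene, in place of the brightest, gave a median of -0.19 with 31 of 43 below 0. Standard errors (SE) were 0.30 to 0.92 with a median of 0.42, and for most genes the SE was larger than the difference. Scaling arrays to a common median moved all genes upward: 23 of 43 were then below 0, against 31.2% of all genes, with a median of -0.03 against 0.24. Relative to the median of all genes, 33 of 43 lay lower under that scaling and 36 of 43 under the deposited one. After quantile normalization 25 of 43 were below 0, with a median of -0.03 against -0.02 over all genes. For 0 of 43 genes were the groups free of overlap, where 4.95% of all genes were higher and 7.86% lower without overlap.

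**Figure D1:**
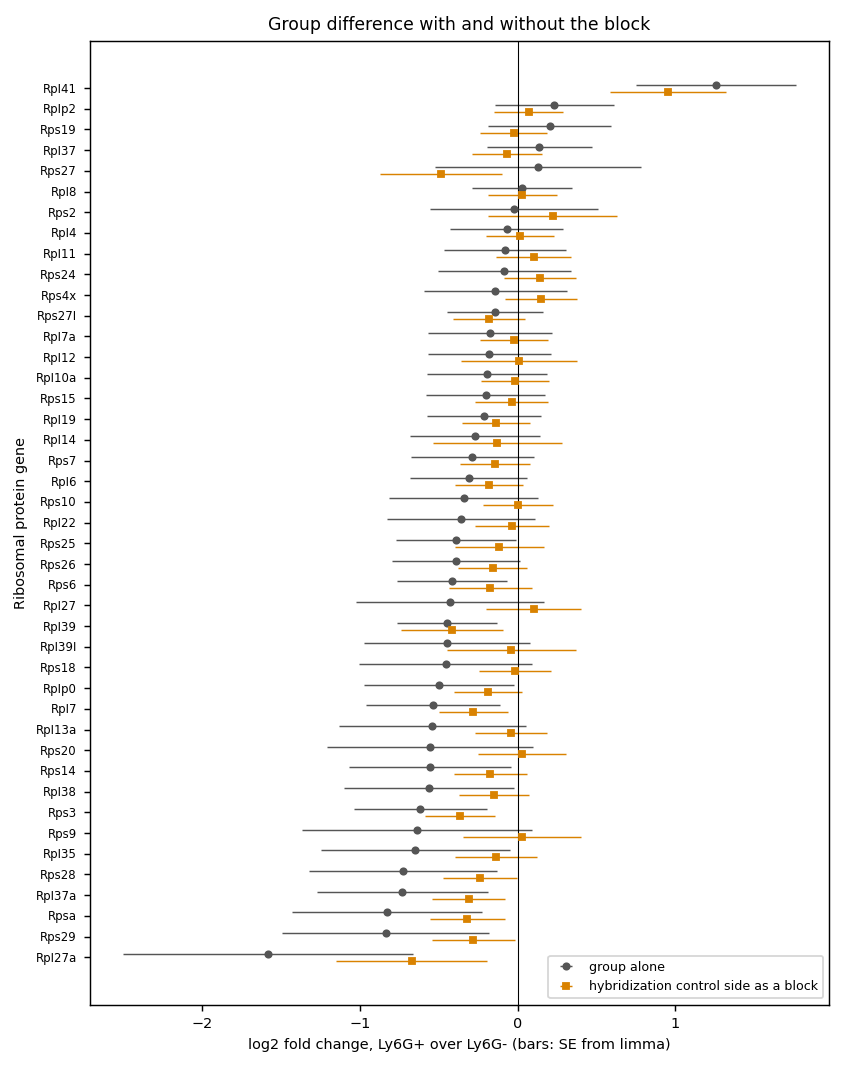
Log2 fold change of Ly6G+ over Ly6G- for the 43 tested genes, with SE from limma (3 arrays per group), in the fit of the group alone (circles) and in the fit blocked by hybridization side (squares). In the first fit 37 genes lie below 0, and with the block the median moves from -0.36 to -0.07 while Rpl41 keeps 0.96.

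Under the deposited scaling, most of these genes differed more between arrays with high and low hybridization controls than between the sorted groups. Hybridization controls, bacterial and phage transcripts spiked in just before hybridization, had a geometric mean signal of 1529 to 2039 on Ly6G+ DC 1, Ly6G+ DC 3 and Ly6G- DC 1, called the low side here, and of 6688 to 12842 on Ly6G+ DC 2, Ly6G- DC 2 and Ly6G- DC 3, the high side. For Actb, the signal at the 3' end over that at the 5' end, a measure of how far RNA or labelling favours 3' ends, lay between 1.17 and 1.49 among low side arrays, against 3.98 to 6.85 among high side arrays. What separates the sides is not given in the sources used here, and the part of the controls and of the 3' ratio in the ribosomal protein signals was not tested. For 32 of 43 genes every high side array lay above every low side array, against 16.9% of all genes, and for 4 genes every high side array lay below, against 11.6%. The median difference, high minus low side, was 0.79 in log2 over the 43 genes and 0.10 over all genes. For 39 of 43 genes the difference between sides was larger in size than the group difference, a count not made over all genes. With arrays scaled to a common median, 20 of 43 lay above without overlap, against 6.01% of all genes, and 5 below, against 21.96%, with a median of 0.43 against -0.23 over all genes. After quantile normalization 9 of 43 lay above, against 14.4% of all genes, and 11 below, against 12.7%, with a median of 0.11 against 0.02. The high side holds 1 Ly6G+ and 2 Ly6G- arrays, so a difference between sides enters the group difference with its sign turned.

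**Figure D2:**
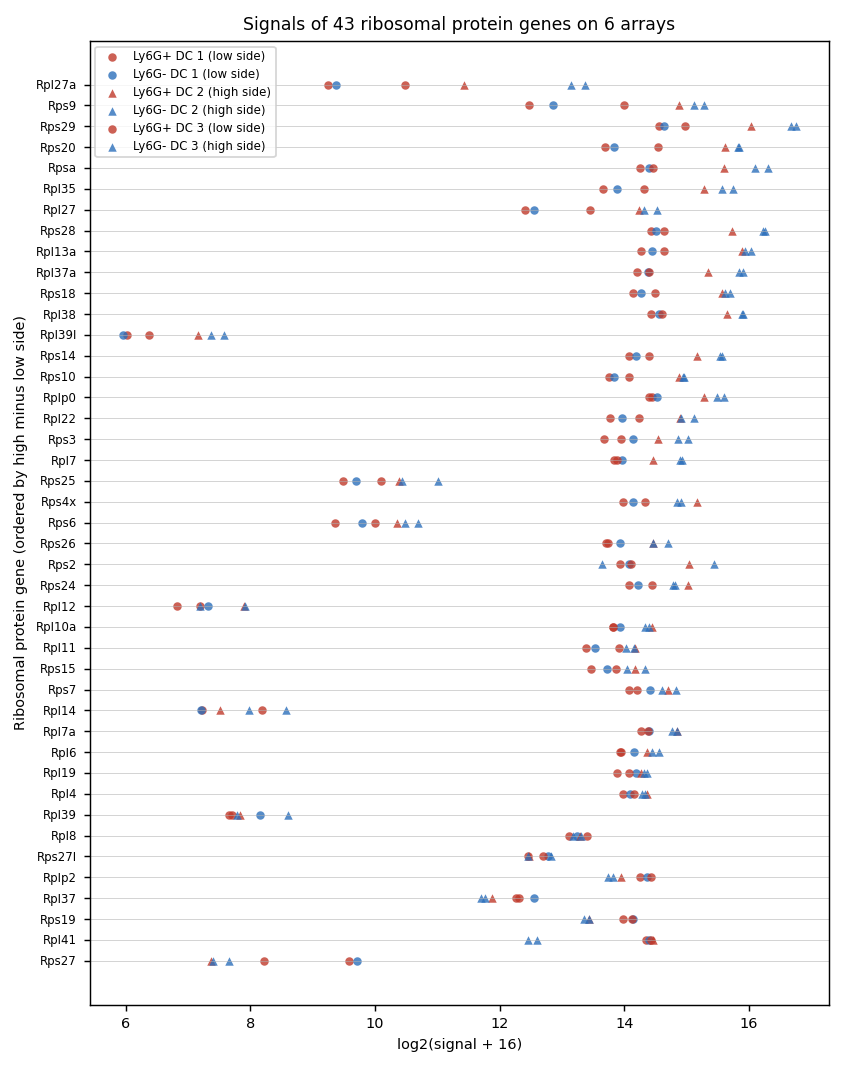
Log2(signal + 16) of the 43 tested genes on each of the 6 arrays, in order of the difference between high and low side. Triangles (high side) lie right of circles (low side) for most genes whatever their colour (red Ly6G+, blue Ly6G-), and the order is turned for Rps27, Rps19, Rpl37 and Rplp2.

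With the side as a block, the shared direction was small. The median log2 fold change was -0.07, against -0.03 over all genes, and 30 of 43 genes were below 0, against 52.9% of all genes. The difference was smaller in size for 36 of 43 genes and changed sign for 13, counts not made over all genes. The median SE went from 0.42 to 0.23, against 0.39 to 0.35 over all genes. Limma called 0 of 43 genes in that fit and 0.0679% of all genes, and at an unadjusted p under 0.05 there was again only Rpl41, against 3.77% of all genes that were higher and 3.6% that were lower. Within the low side, with 2 Ly6G+ arrays against 1 Ly6G- array, the median was -0.03 and 24 of 43 genes were below 0, against 56.2% of all genes. Within the high side, with 1 Ly6G+ array against 2 Ly6G- arrays, it was -0.14 with 30 of 43 below 0, against 49.9% of all genes.

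Among small subunit genes, Rps29 had the largest negative difference. Rps29, a zinc-binding protein of the small subunit head, had signals of 24012, 66858 and 32052 for Ly6G+ DC 1, 2 and 3 against 25487, 104465 and 110188 for Ly6G- DC 1, 2 and 3, the order of arrays used throughout. Ly6G- DC 2 and 3 were highest and Ly6G+ DC 1 lowest, while Ly6G- DC 1 lay below both Ly6G+ DC 2 and 3, so the groups overlapped. Its log2 fold change was -0.84 ± 0.66 (SE; limma, adjusted p = 0.779) and -0.28 ± 0.26 with the control block.

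Rps28, another protein of the small subunit head, had 21999, 54385 and 25443 for Ly6G+ DC against 23158, 76168 and 78303 for Ly6G- DC. Rpsa, also known as the laminin receptor precursor and part of the small subunit, had 19453, 49701 and 22428 for Ly6G+ DC against 21450, 69815 and 81055 for Ly6G- DC. Both followed the order of Rps29, and their log2 fold changes of -0.73 ± 0.59 and -0.83 ± 0.60 were -0.24 ± 0.24 and -0.32 ± 0.24 under the block (SE). Rps3, which also acts in DNA repair, had 15825, 23797 and 13114 for Ly6G+ DC against 18115, 29648 and 33104 for Ly6G- DC. Here Ly6G+ DC 3 was the lowest array, and within each side the value was lower in Ly6G+ DC, with log2 differences of -0.33 (low side) and -0.40 (high side). Its log2 fold change was -0.62 ± 0.42 without and -0.36 ± 0.22 with the block (SE), and neither passed limma, with adjusted p = 0.751 and 0.743.

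Rps6, the small subunit protein that S6 kinase phosphorylates downstream of mTORC1, had signals of 640.0, 1288 and 1007 for Ly6G+ DC against 868.1, 1634 and 1409 for Ly6G- DC. The array with each number was lower in Ly6G+ DC, yet the groups overlapped, and the log2 fold change was -0.42 ± 0.35 (SE). Rps9 differed by -0.64 ± 0.73 in log2 and Rps14 by -0.56 ± 0.51 (SE), which the block turned to 0.03 ± 0.37 and -0.17 ± 0.23. Over the 20 tested small subunit genes 18 were below 0, with a median of -0.39 that was -0.13 with the block, and their median difference between sides was 0.84. Of these, the 9 tested genes of the head had a median of -0.46, and -0.04 with the block.

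A few small subunit genes ran the other way. Rps19, the gene most often mutated in Diamond-Blackfan anaemia, had 16124, 11057 and 17749 for Ly6G+ DC against 18103, 10994 and 10423 for Ly6G- DC. All 3 high side arrays lay below all 3 low side arrays, and the log2 fold change of 0.20 ± 0.39 became -0.03 ± 0.22 with the block (SE). Rps27, a zinc finger protein of the small subunit, was read by a dimmer probe set with 747.2, 149.1 and 280.8 for Ly6G+ DC against 819.2, 153.0 and 185.9 for Ly6G- DC. Its signals were highest on both arrays numbered 1, and the log2 fold change was 0.13 ± 0.65, or -0.49 ± 0.39 with the block (SE). Of 18 genes listed as mutated in Diamond-Blackfan anaemia, 11 were tested, 9 of these were below 0 and none passed limma's test, with a median of -0.34 that was -0.14 with the block.

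In the large subunit 19 of 23 tested genes were below 0. Its median was -0.31, or -0.04 with the block, and the median difference between sides was 0.54. Rpl13a, which can leave the ribosome to silence inflammatory messages in myeloid cells, had 19637, 60707 and 25540 for Ly6G+ DC against 22250, 62924 and 66892 for Ly6G- DC. Every high side array was above every low side array, within a side the groups differed by 0.01 and -0.10 in log2, and the log2 fold change of -0.54 ± 0.59 was -0.04 ± 0.23 with the block (SE). These values are of its brightest probe set, 1455485_x_at. Another bright one, 1417608_a_at, ran the other way, with a difference between sides of -0.84 and a log2 fold change of 0.23. For 1455001_x_at these were 1.08 and -0.35, and for 1433928_a_at 0.89 and -0.25. Rpl38, which helps translate certain developmental messages, had 22082, 51086 and 24831 for Ly6G+ DC against 24111, 60918 and 61464 for Ly6G- DC. Rpl37a, a zinc-binding protein of the large subunit, and Rpl35, which lies at the peptide exit, differed by -0.73 ± 0.54 and -0.65 ± 0.60 in log2, and Rpl38 by -0.56 ± 0.54 (SE). Under the block Rpl38, Rpl37a and Rpl35 had -0.15 ± 0.22, -0.31 ± 0.23 and -0.14 ± 0.26.

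Rpl27a had the largest negative difference of the family. Its signals were 589.0, 2731 and 1406 for Ly6G+ DC against 645.3, 9009 and 10577 for Ly6G- DC, the latter on arrays 2 and 3. Every high side array lay above every low side array, with a difference between sides of 2.95. The log2 difference of Ly6G+ over Ly6G- was 0.49 within the low side and -1.83 within the high side. Ly6G- DC 1 lay with the Ly6G+ arrays, and the log2 fold change of -1.58 ± 0.92 did not pass limma (adjusted p = 0.722), nor with the block (-0.67 ± 0.48, adjusted p = 0.780). Without Ly6G- DC 1 it was -2.88 and passed with an adjusted p = 0.0316 by limma, and both remaining Ly6G- arrays were then of the high side. In that fit limma called 24 of all 12709 genes tested. An unadjusted p under 0.05 was found for 10 of the 43 ribosomal protein genes, against 1882 of all 12709 genes. Rpl27a was the only ribosomal protein gene called when each array was left out in turn. With the array name in the titles as a block, limma called 0 of 43 genes, against 0.143% of all genes. At an unadjusted p under 0.05 that fit had 1 higher gene, Rpl41, against 6.15% of all genes, and 1 lower gene, Rpl27a, against 5.99%, with adjusted p = 0.227 and 0.175.

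The ribosomal stalk, which recruits elongation factors, was read by Rplp0 and Rplp2, and these did not move alike. Rplp0, the base of the stalk, had 22185, 39794 and 21587 for Ly6G+ DC against 23665, 45691 and 49872 for Ly6G- DC, higher on the high side. Rplp2, one of the stalk's acidic proteins, had 19414, 15832 and 21930 for Ly6G+ DC against 21086, 14414 and 13681 for Ly6G- DC, lower on the high side. Their log2 fold changes were -0.50 ± 0.48 and 0.23 ± 0.38, and -0.19 ± 0.22 and 0.07 ± 0.22 with the block (SE). Rpl37 ran as Rplp2 did, with 4888, 3725 and 5041 for Ly6G+ DC against 5996, 3469 and 3307 for Ly6G- DC.

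Rpl8 and Rpl11 had group differences near 0. Rpl8, which contacts the peptidyl transferase centre, had 8858, 10032 and 10745 for Ly6G+ DC against 9709, 9275 and 10053 for Ly6G- DC, a log2 fold change of 0.03 ± 0.32 (SE). Rpl11, which binds 5S rRNA and the p53 regulator MDM2, had 10623, 18508 and 15505 for Ly6G+ DC against 11815, 18318 and 16595 for Ly6G- DC. All 3 high side arrays of Rpl11 lay above the low side arrays, with a difference between sides of 0.51, while the log2 fold change was -0.08 ± 0.38 and, with the block, 0.10 ± 0.24 (SE). The 5 tested genes of the peptide tunnel and its exit, Rpl4, Rpl19, Rpl22, Rpl35 and Rpl39, were all below 0 with a median of -0.36, and with the block 4 of the 5 were below 0, with a median of -0.14. Rpl22, whose protein also binds viral RNA, had -0.36 ± 0.47, or -0.04 ± 0.24 with the block (SE).

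Second gene copies and dim probe sets gave little. Rps27l, a p53-induced copy of Rps27, had 5599, 5679 and 6599 for Ly6G+ DC against 6980, 5594 and 7254 for Ly6G- DC, a log2 fold change of -0.14 ± 0.30 (SE) with overlapping groups. Rpl39l, a copy of Rpl39 expressed in testis, was dim at 48.9 to 126.7 in Ly6G+ DC and 46.3 to 174.3 in Ly6G- DC, where the 40th percentile of an array lay between 36.0 and 61.7. Rpl3l, a muscle copy of Rpl3, was at 11.0 to 29.6 and 18.3 to 96.1, and Rps16, read by a dim probe set, at 2.80 to 10.3 and 2.95 to 78.5. Rps4l, a copy of Rps4x, was at 59.6, 22.5 and 174.0 for Ly6G+ DC against 14.2, 14.1 and 12.3 for Ly6G- DC. Those groups did not overlap, but only 2 of the 6 arrays exceeded their 40th percentile, so Rps4l was not tested. Rpl12 and Rpl14, of the large subunit, were also read by dim probe sets, with log2 fold changes of -0.18 ± 0.39 and -0.27 ± 0.41 (SE).

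Rpl41, the smallest protein of the ribosome, had the largest positive difference. Its brightest probe set, 1455578_x_at, had 20792, 22456 and 21906 for Ly6G+ DC against 21628, 5614 and 6161 for Ly6G- DC. Ly6G- DC 2 and 3 stood low and Ly6G- DC 1 lay among the Ly6G+ arrays, so the groups overlapped. The log2 fold change was 1.26 ± 0.51 (SE; unadjusted p = 0.0315, adjusted p = 0.708 by limma), and 0.96 ± 0.37 with the block. The other bright probe set of Rpl41 had 0.44, and both dim ones, with a mean log2(signal + 16) of at most 8.41, had -0.73 and -0.88, so bright and dim probe sets differed in direction. The mean over all 4 was 0.02.

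Probe sets of one ribosomal protein gene often disagreed. The 46 genes had 100 probe sets, of which 90 passed the filter, and 14 of the 20 genes with several kept probe sets had log2 fold changes on both sides of 0. Such disagreement was not counted for other genes, and some of the 14 rest on a dim probe set or on a value near 0. Among probe sets with a mean log2(signal + 16) of at least 12, 18 genes had more than 1. Their brightest probe sets were below 0 for 17 of 18, with a median of -0.50, but of their 33 other probe sets 15 were below 0 and 18 above, with a median of 0.09. The brightest probe sets had a median difference between sides of 1.27 and the others one of -0.03. The brightest were chosen by mean signal over these same 6 arrays, so high side signals enter the choice. The contrast between the brightest and the others can therefore be built in in part, and is a description. For 11 of the 18 genes the sides differed in opposite directions within the gene. Over the 68 bright probe sets the side and group differences had a Pearson's r of -0.90, given as a description because both come from the same 6 arrays. Of 22 bright probe sets lower on the high side 19 were higher in Ly6G+ DC, and of 46 higher on the high side 42 were lower in Ly6G+ DC. The high side holds more Ly6G- than Ly6G+ arrays, so opposite signs are in part built in, and these counts are a description too.

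**Figure D3:**
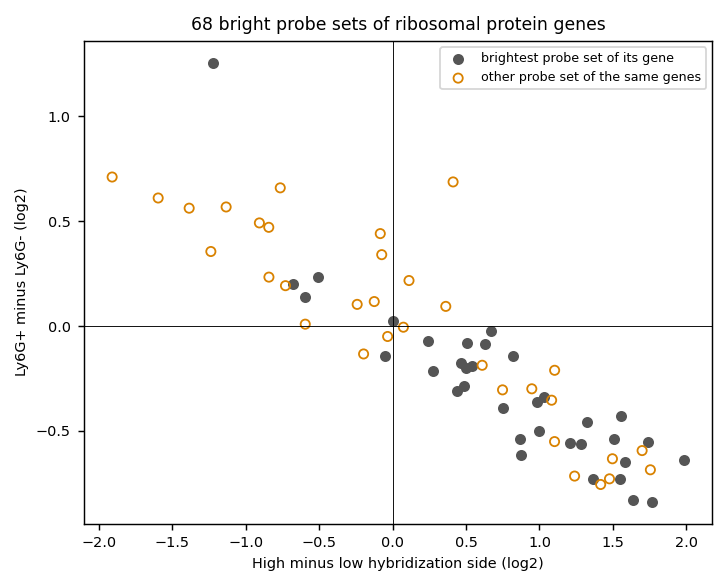
Difference between hybridization sides (horizontal, log2) and between sorted groups (vertical, log2) for 68 bright probe sets of ribosomal protein genes, each a point. Filled points are the brightest probe set of a gene and open points its other probe sets; they run from upper left to lower right with r = -0.90.

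Rps10, a head protein of the small subunit, shows the disagreement in 5 kept probe sets. The brightest, 1434854_a_at, had 13867, 29979 and 17289 for Ly6G+ DC against 14594, 31274 and 31960 for Ly6G- DC. Another, 1416719_a_at, had a difference between sides of -1.60 where the brightest had 1.03. Their log2 fold changes were 0.61 and -0.34. In Rpl27, of the large subunit, the brightest probe set had a log2 fold change of -0.43 and a difference between sides of 1.56, and 1416099_at had 0.71 and -1.91. Rpl37a, Rpl35 and Rps9 likewise had bright probe sets on both sides of 0. Of the 43 brightest probe sets, 16 carry the suffix _x_at, which Affymetrix gives to probe sets with probes that can bind other transcripts, and many ribosomal protein genes have near-identical pseudogenes, so their signals are uncertain as to source. The 16 had a median log2 fold change of -0.54 and a difference between sides of 1.30, and the other 27 had -0.29 and 0.54.

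**Figure D4:**
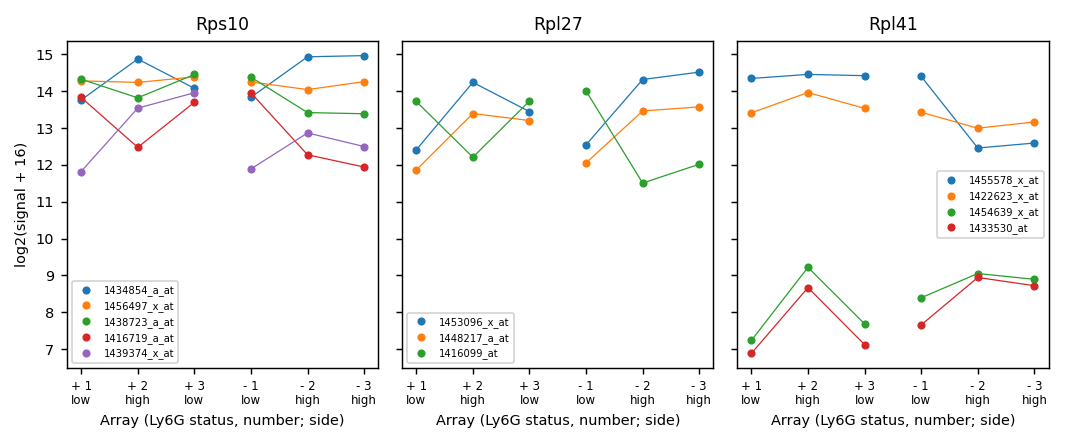
Log2(signal + 16) of each kept probe set of Rps10, Rpl27 and Rpl41 on the 3 Ly6G+ and 3 Ly6G- arrays, with the side named under each; lines join arrays of one group and stand for no order. Probe sets of one gene run apart on the high side, as 1434854_a_at and 1416719_a_at of Rps10 do with 1.03 and -1.60.

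Bright ribosomal protein signals were packed near the top of the low side arrays. The highest signal of any probe set lay between 26674 and 32052 among low side arrays, against 79712 to 138679 among high side arrays. On the low side 24 to 29 of the 43 probe sets lay within 2-fold of their array's highest signal, and on the high side 3 to 9. The 35 probe sets with a mean log2(signal + 16) above 12 spanned 4.27-fold to 6.36-fold on low side arrays and 17.9-fold to 33.3-fold on high side arrays. Whether this narrower range bears on the differences was not tested.

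**Figure D5:**
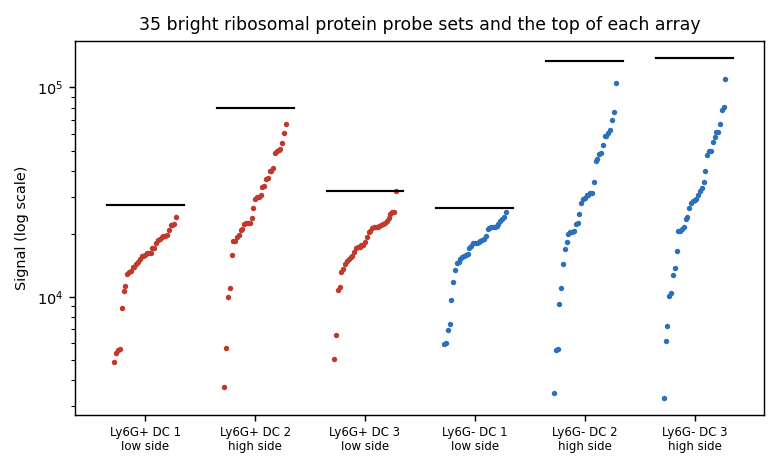
Signals (log axis) of the 35 bright ribosomal protein probe sets on each array, sorted within the array (red Ly6G+, blue Ly6G-), with a bar at the highest signal of any probe set. The points spread up to 33.3-fold on the high side and 6.36-fold at most on the low side.

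The arrays numbered 1, which share an array name in the titles that differs from the other numbers and both lie on the low side, gave differences mostly of 1 sign under the deposited scaling. Ly6G+ DC 1 was below Ly6G- DC 1 for 41 of 43 genes, against 53.9% of all genes, with a median of -0.14 in log2 and a range from -0.44 to 0.06. With arrays scaled to a common median, which moves the median of all genes in that pair to 0.16, 10 of 43 were below 0, but 41 of 43 stayed below the median of all genes. By quantile normalization 40 of 43 were below 0. This is 1 array against 1, with no replicate, and the 43 genes share those arrays, so no test was made. On the arrays numbered 2 and 3 the median was -0.45, with 36 of 43 below 0, against 55.8% of all genes, and by quantile normalization it was -0.01.

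Other messages of the translation machinery were read from lists. Fitted without a block, limma called 0 genes of any list below at an adjusted p under 0.05. Counts at an unadjusted p under 0.05 stand against 3.39% of all genes higher and 3.51% lower. Their directions hold for the deposited scaling, since scaling to a common median moves the median of all genes from -0.07 to 0.24. Of 15 TOP messages outside the ribosome, 10 were below 0, with a median of -0.35, or -0.15 with the block, 13 were higher on the high side, and 0 had an unadjusted p under 0.05. Tpt1, a growth-related TOP message, had -0.75 ± 0.57, Eef1a1, the factor that brings transfer RNA to the ribosome, -0.61 ± 0.53, and Pabpc1, which binds the poly(A) tail, -0.57 ± 0.52 (SE). Their differences between sides were 1.45, 1.27 and 1.31, as large as those of the bright ribosomal protein genes. Eef2, which moves the ribosome along the message, had -0.51 ± 0.36 with a difference between sides of 0.27.

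Ribosomal proteins that the symbol rule does not take gave smaller values. Fau, which encodes Rps30 fused to a ubiquitin-like protein, had -0.31 ± 0.36, and Rps3a1 -0.02 ± 0.39 (SE). Rpl22l1 and Rpl7l1, copies of Rpl22 and Rpl7, had 0.12 ± 0.29 and 0.21 ± 0.28. Neither these 4 genes nor the 6 elongation factors, of which 4 were above 0 with a median of 0.08, held one with an unadjusted p under 0.05. Of 30 initiation factors 14 were above 0 with a median of -0.11, and Eif3a and Eif4g3, scaffolds of initiation, had an unadjusted p under 0.05, with 0.85 ± 0.34 and 0.83 ± 0.31 (SE).

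Genes that build ribosomes had no shared direction. Of 51 assembly factors and RNA polymerase I genes 22 were below 0, with a median of 0.09, and only the dim Polr1a, the largest subunit of RNA polymerase I, had an unadjusted p under 0.05, with -1.21 ± 0.50 (SE). Npm1, a nucleolar chaperone, had 0.16 ± 0.34. Of 75 genes of the mitochondrial ribosome 49 were above 0, with a median of 0.16 and a difference between sides of -0.23, opposite in sign to that of the cytosolic genes. At an unadjusted p under 0.05 there were 3 of 75, all higher, a share near the 3.39% of all genes: Mrpl37 with 1.31 ± 0.38, Mrpl27 with 1.18 ± 0.47 (SE), and Mrps11 with 1.07. Of 20 genes of mTORC1 and MYC control 9 were above 0, and 3 had an unadjusted p under 0.05: Myc with 1.03 ± 0.38, Mtor with -0.77 ± 0.28 and Rptor with -0.80 ± 0.34 (SE). With the block these had 0.98 ± 0.39, -0.64 ± 0.23 and -0.74 ± 0.33.

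Markers of the sorted cells were measured beside these genes. Of 16 neutrophil markers 14 were tested and all 14 were above 0, with a geometric mean of 1608 to 3006 on Ly6G+ arrays and 120 to 452 on Ly6G- arrays. With the block, limma called 5 of these at an adjusted p of 0.0373 each: S100a8, Lcn2, Ngp, Cxcr2 and Lrg1, where the group alone gave an adjusted p of 0.0578. At an unadjusted p under 0.05, 13 of the 14 were higher in Ly6G+ DC by limma, and 9 of the dendritic cell markers lower. All 16 dendritic cell markers had log2 fold changes below 0, with a geometric mean of 2215 to 3431 against 4618 to 6681. None of the tested markers was at 0 in any sample, but a signal above 0 can still be dim. On Ly6G- arrays, whose 40th percentile lay between 54.6 and 61.7, Cd177 was at 2.70 to 42.8 and Lrg1 at 6.76 to 8.87. Tested macrophage, lymphoid and erythroid markers numbered 12, 5 and 3, with medians of 0.22, -0.75 and -0.19, and 2, 2 and 0 of them had an unadjusted p under 0.05. The part of any of these cells in the ribosomal protein values was not tested.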

How the data were processed

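Expression was measured on 6 arrays, 3 per group. The deposited values are intensities on a linear scale, 1 per probe set and array, which the authors had scaled: leaving out the top and bottom 2% of probe sets, the mean signal is 250.0 on every array. Per the submitters' processing notes, Affymetrix Expression Console 2.0, MAS5 and GCOS were used, with settings not given in the sources used here. As a method MAS5 subtracts the signal of mismatch probes, which makes dim probe sets noisy.

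Of 45101 probe sets, 34958 had 1 gene symbol in the platform's annotation, 932 several and 9211 none; 110 kept probe sets with several symbols include one that fits the rule and were not used. Signals were taken as log2(signal + 16), which understates fold changes of dim genes. A probe set was kept when above its array's 40th percentile on at least 3 arrays. Each gene was read from its brightest kept probe set, and for every tested ribosomal protein gene that was the brightest of all. Groups were compared by limma 3.58.1 in R 4.3.3 (lmFit, eBayes with an intensity trend) with Benjamini-Hochberg adjustment over 13262 genes, and the code was tested on simulated data. Precision is limited by having 3 arrays a group.

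The ribosomal protein genes, the lists and the split by hybridization controls were chosen with earlier results of these data known. Arrays were split where the 18 control probe sets, averaged in log2, leave the largest step. Genes named by rule are those past the threshold, the 10 largest differences in each direction, those without overlap or with an unadjusted p under 0.05, the 6 brightest and 6 dimmest, members of the stalk, 5S rRNA and gene copy lists, those with a known role, and the 3 whose probe sets disagree most. From other lists they are the 2 largest differences and the brightest. Rps10, Rpl27, Pabpc1, Eef2, Rpl22l1, Mtor, Mrps11 and the members of the peptide tunnel list were named after their values were seen.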

Additional observations from a re-analysis of the deposited data

How the results depend on the processing

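Median log2 fold changes stayed below 0 under all 19 alternatives to the fit of the group alone. Among these, the replicate and array name blocks, balanced over the groups, and the changes of variance model cannot move a log2 fold change. Limma called 0 ribosomal protein genes in each alternative except without Ly6G- DC 1, where it called Rpl27a among 24 of all 12709 genes. Quantile normalization gave a median of -0.035, against -0.019 over all genes, and scaling to a common median gave -0.0295, against 0.24, with 23 of 43 genes below 0, where 31.2% of all genes were. Within the low side the median was -0.0313 with 24 below 0. With arrays left out in turn, calls ranged from 0 to 1, the median from -0.62 to -0.12 and the number below 0 from 31 to 37. The cause of these shifts was not tested. The mean of kept probe sets gave -0.19 with 31 below 0, and probe sets without the _x_at suffix -0.21 with 33. The values within each side, within each array name and of the other bright probe sets of a gene were added after seeing the data. The replicate block leaves the median of -0.36 and the 37 genes below 0 as they were by design. It called 0 ribosomal protein genes, while calls among all genes went from 0 to 20. Deviations of same-numbered arrays correlated with 0.50, 0.22 and -0.05, and those of other arrays with -0.46 to 0.31. Ly6G+ DC 2 correlated best with Ly6G- DC 3, both of the high side, while Ly6G+ DC 3 and Ly6G- DC 3 are of opposite sides. Number and side are mixed in these correlations, so they cannot decide whether the numbers pair the samples. The labels do not say whether same-numbered samples share a culture, and the main fit used no pairing. The array name block called 0 ribosomal protein genes and 0.143% of all genes. Signal near the 40th percentile limits what can be read for Rpl39l.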
